A study of Mus musculus with 15 samples.

Results

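Monocytes and macrophages share a set of transcripts for growth factor signalling, pattern recognition, antibody binding and killing, and 10 of these were followed across livers of male C57BL/6J mice. The genes were taken by symbol as core transcripts of the lineage, with earlier results of these data known: Adgre1, Csf1r, Cd14, Fcgr1, Fcgr3, Mpeg1, Lyz2, Sirpa, Clec7a and Ms4a7. All 10 were found among the 26839 genes of the deposited tables, and all 10 passed the filter on low counts in every comparison. Ms4a7, which had few counts, could pass through its higher group alone in the comparison of diets. Liver RNA was sequenced in 15 libraries, 3 in each of 5 groups, each at 16 weeks. Chow GFP livers came from mice on standard chow and normal water that carried an adeno-associated virus of serotype 8 (AAV8) expressing green fluorescent protein (GFP) from the TBG promoter, named liver-specific in the labels. The other 4 groups ate the FPC diet with sugar water, which produces non-alcoholic steatohepatitis (NASH), and differed in their AAV8. NASH GFP livers received the same GFP vector, Activin A livers received Activin A under the TBG promoter, scramble livers received a scrambled short hairpin RNA under an H1 promoter, and Gpnmb hairpin livers received an H1 hairpin against Gpnmb. Activin A is a secreted signal related to TGF-beta, and GPNMB is a membrane glycoprotein found on macrophages among other cells. Every mouse thus carried an AAV8 vector and no group was without one. The labels name no vector directed at macrophages and do not say which liver cells the H1 vectors reached.

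The liver holds a resident macrophage population, the Kupffer cells of the sinusoids, and receives blood monocytes that can become macrophages there. Both depend on signalling through the CSF1 receptor and carry receptors for microbial products and for antibody Fc regions. In steatohepatitis, monocyte-derived macrophages are known to gather in the liver and some take on a lipid-associated state marked by Gpnmb and Trem2. In whole liver RNA these transcripts come from a minority of cells, so fewer cells of a type and less RNA per cell cannot be told apart in any result that follows.

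Promoters are shown for 4 of the genes as a description of sequence, and the part of any factor in the results was not tested. The lineage factor PU.1, encoded by Spi1, is known to bind purine-rich sites with the core GAGGAA in myeloid promoters. RefSeq start sites (GRCm38.p6) were available for 6 of the 10 genes, namely Fcgr1, Fcgr3, Mpeg1, Lyz2, Clec7a and Ms4a7, with 9 windows of 300 bases, from 250 before to 50 after a start. GAGGAA on either strand lay in 6 of these 9 windows, from 4 of the 6 genes (Fcgr1, Fcgr3, Clec7a and Ms4a7), and in 28.3% of all 32851 RefSeq windows. The windows of Fcgr3 overlap and share their match, as do those of Clec7a. The Ms4a7 match lay after the start (+43) and in only 1 of its windows. The sequences run in the direction of transcription, with GAGGAA or its complement TTCCTC in capitals.
Clec7a, chr6:129472730-129473029, minus strand: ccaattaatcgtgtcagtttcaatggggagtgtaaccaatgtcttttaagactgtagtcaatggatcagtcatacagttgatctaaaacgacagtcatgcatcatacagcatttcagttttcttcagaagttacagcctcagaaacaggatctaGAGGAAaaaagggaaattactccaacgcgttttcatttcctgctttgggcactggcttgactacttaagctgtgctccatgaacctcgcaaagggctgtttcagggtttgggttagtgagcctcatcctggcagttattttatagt
Fcgr1, chr3:96293920-96294219, minus strand: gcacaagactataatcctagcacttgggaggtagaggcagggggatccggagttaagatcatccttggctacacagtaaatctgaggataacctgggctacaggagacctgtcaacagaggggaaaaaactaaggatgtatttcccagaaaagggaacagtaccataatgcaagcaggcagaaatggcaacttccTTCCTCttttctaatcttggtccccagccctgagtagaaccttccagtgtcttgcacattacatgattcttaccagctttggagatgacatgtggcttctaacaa
Fcgr3, chr1:171059354-171059653, minus strand: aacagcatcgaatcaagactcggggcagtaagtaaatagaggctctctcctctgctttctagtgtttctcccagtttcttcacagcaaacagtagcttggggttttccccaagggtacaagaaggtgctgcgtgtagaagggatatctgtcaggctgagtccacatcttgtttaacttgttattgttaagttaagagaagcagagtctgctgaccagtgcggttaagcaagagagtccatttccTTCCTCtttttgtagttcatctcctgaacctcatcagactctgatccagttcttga
Lyz2, chr10:117282223-117282522, minus strand: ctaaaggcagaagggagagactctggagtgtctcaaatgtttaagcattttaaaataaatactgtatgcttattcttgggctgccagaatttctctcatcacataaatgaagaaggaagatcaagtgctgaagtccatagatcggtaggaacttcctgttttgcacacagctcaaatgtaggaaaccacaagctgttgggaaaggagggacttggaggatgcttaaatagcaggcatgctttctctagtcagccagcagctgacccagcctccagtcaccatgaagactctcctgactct
The Clec7a window is that of the gene with the highest diet response, the Fcgr1 and Fcgr3 windows belong to a pair of activating Fc receptors, and the Lyz2 window, which has no match, belongs to the most abundant of the 10 transcripts per length. Of the other motifs searched on both strands, the AP-1 type TGANTCA was found in 1 of the 9 windows (7.81% of all windows). The C/EBP type TTGCNNAA was found in 2, both of Fcgr3 (10.8%). The interferon-stimulated response element (ISRE) was found in 0 (3.44%) and TATAAA, the letters of a TATA box, in 1 (13.6%). That match lay in Clec7a on the opposite strand, after the start (+42), and was absent from the other Clec7a window. Each motif was counted by itself, so a base could belong to matches of several motifs.

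Libraries held 15276879 to 23467867 counts, of which the 10 genes took 2109 to 13564, and albumin took 4.53% to 6.70%. Gpnmb stood at a mean of 0.292 CPM (counts scaled to a common library size with trimmed mean of M values factors) in chow GFP livers, 30.6 in NASH GFP, 4.0 in Activin A, 31.4 in scramble and 2.02 in Gpnmb hairpin livers. Inhba, the gene of the Activin A subunit, stood at 11.01 CPM in chow GFP, 8.05 in NASH GFP, 24.9 in Activin A, 5.48 in scramble and 10.4 CPM in Gpnmb hairpin livers. Gpnmb was thus lower under its hairpin and Inhba higher in Activin A livers, as labelled. Gpnmb was also lower in Activin A livers, which carried no hairpin, so its level alone cannot check the hairpin label. Inhba was also higher in hairpin than in scramble livers. The part of that difference in the results was not tested. Every pair of same-group libraries differed beyond counting error, with a chi-square divided by its degrees of freedom no lower than 5.19. The labels do not say whether libraries of a group are separate animals, so the p-values measure only the spread between these libraries, which may be technical.

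The diet raised all 10 macrophage genes, and each treatment lowered all 10 against its own NASH control. Their summed level was 159 to 160 CPM in the chow GFP libraries and 512 to 605 CPM in the NASH GFP libraries. It was 192 to 222 CPM in Activin A, 448 to 563 CPM in scramble and 203 to 282 CPM in Gpnmb hairpin libraries. On the diet all 10 rose (edgeR adjusted p under 0.05, n = 3 per group), where 11.2% of 14388 genes tested were called higher and 5.82% lower, with a median log2 fold change of 1.90 against -0.01 over all genes tested. Under Activin A all 10 fell, where 3.86% of 14598 genes were called lower and 1.66% higher, with a median of -1.35 against 0.00. Under the Gpnmb hairpin all 10 fell as well, where 12.0% of 14845 genes were called lower, with a median of -1.2 against 0.00. No gene of the 10 had overlapping libraries between the compared groups, as held for 35.4%, 25.9% and 41.0% of all genes tested. Over all genes, the share of higher calls depended on the scaling: 1607 genes were higher and 838 lower on the diet, but 2671 and 405 with library size alone, where the median gene stood at 0.24. Under the hairpin 1813 were higher and 1788 lower, but 1006 and 2464 with library size alone, where the median gene stood at -0.11. All 10 genes were still called in the same direction with that scaling.

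**Figure D1:**
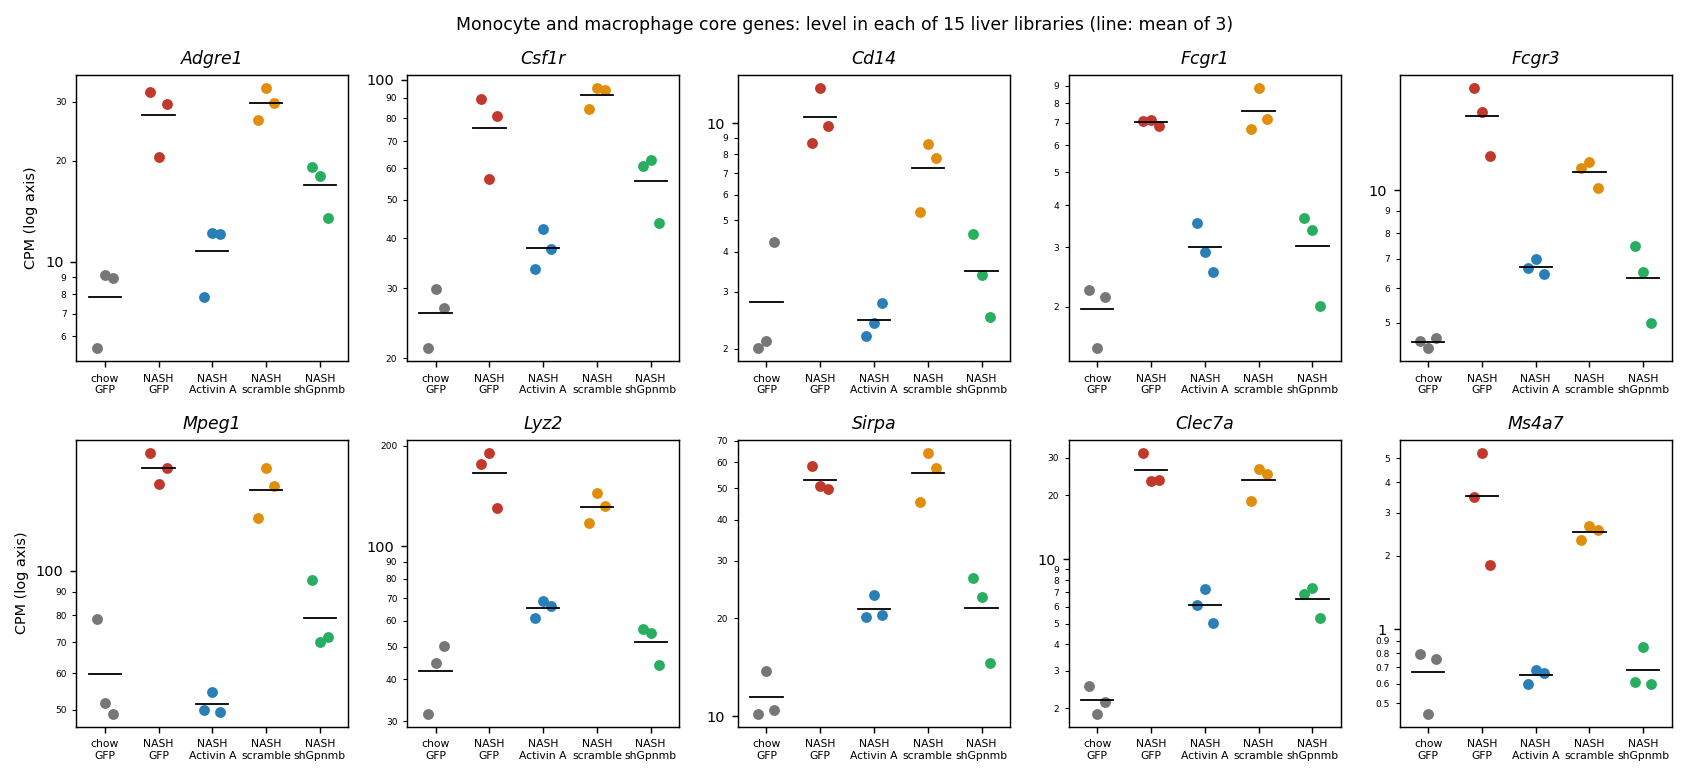
Level of each of the 10 genes (CPM, log axis) in the 15 liver libraries, by group, with a line at the mean of 3. The NASH GFP and scramble means are the 2 highest in every panel, and all Activin A and Gpnmb hairpin libraries lie below those of their own NASH control.

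Adgre1 and Csf1r mark the lineage itself. Adgre1 encodes F4/80, the adhesion receptor by which mouse macrophages are usually recognised, and Csf1r encodes the receptor for the survival factors CSF1 and IL-34. Adgre1 (ENSMUSG00000004730, GRCm38 chromosome 17, 57358691 to 57483527, plus strand) stood at 5.53, 9.14 and 8.96 CPM in chow GFP libraries 1 to 3 and at 32.1, 20.5 and 29.5 CPM in NASH GFP libraries. Its levels were 7.87, 12.2 and 12.1 CPM in Activin A, 26.5, 33.1 and 29.7 CPM in scramble and 19.2, 18.1 and 13.6 CPM in Gpnmb hairpin libraries. Activin A livers overlapped with chow, whereas every hairpin library lay between the highest chow and the lowest NASH control library. The diet changed Adgre1 by 1.84 ± 0.24 (SE, here and throughout) on the log2 scale (edgeR adjusted p = 0.000835), Activin A by -1.35 ± 0.21 (0.00721), and the hairpin by -0.82 ± 0.13 (0.00193). Csf1r (ENSMUSG00000024621, chromosome 18, 61105572 to 61132149, plus strand) stood at 21.2, 29.8 and 26.7 CPM in chow GFP and at 89.5, 56.3 and 81.2 CPM in NASH GFP libraries. It stood at 33.5, 42.3 and 37.7 CPM in Activin A, 84.5, 95.5 and 94.0 CPM in scramble and 60.6, 62.7 and 43.7 CPM in Gpnmb hairpin libraries. The hairpin livers lay below scramble, but their range reached into that of the NASH GFP livers, whose library 2 was the lowest for both genes. On the log2 scale Csf1r differed by 1.58 ± 0.20 with diet (edgeR adjusted p = 0.000749), by -1.0 ± 0.17 (0.00898) with Activin A and by -0.72 ± 0.12 (0.00210) with the hairpin, the smallest size of the 10 in each treatment. The Csf1r call under Activin A was lost without Activin A library 1 (adjusted p = 0.0572) or 3 (0.0590). Csf1r overlaps Hmgxb3 on the opposite strand, and since the strand setting of the counting is not given, reads of the pair cannot be told apart.

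Among 4 other adhesion receptor genes of the Adgre1 family tested, 2 rose on the diet, 0 were called under Activin A and 1 fell under the hairpin, with 4, 0 and 2 under library size alone. Adgre5 rose by 1.08 ± 0.17 on the diet and fell by 0.47 ± 0.13 under the hairpin. The other genes of the growth factor and lineage group moved mostly with the receptor. Of 12 tested, 9 rose and 0 fell on the diet (8 rose with DESeq2 size factors), 0 rose and 4 fell under Activin A, and 0 rose and 9 fell under the hairpin. Spi1, the gene of PU.1, rose by 2.07 ± 0.20 on the log2 scale on the diet, fell by 0.93 ± 0.15 under Activin A and fell by 1.49 ± 0.19 under the hairpin. Irf8, a monocyte lineage factor, rose by 1.51 ± 0.22 and fell by 0.93 ± 0.16 under Activin A. Csf2ra, the GM-CSF receptor subunit, rose by 1.59 ± 0.22, fell by 1.25 ± 0.18 under Activin A and fell by 1.06 ± 0.16 under the hairpin. Cebpa, which hepatocytes express strongly as well, fell by 0.47 ± 0.07 under the hairpin. The ligand genes were chosen for mention after their values were seen: Csf1 rose by 0.81 ± 0.18 on the diet and fell by 0.88 ± 0.17 under the hairpin, and its log2 fold change under Activin A was -0.20 ± 0.12 (edgeR adjusted p = 0.425).

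Cd14 and Clec7a encode receptors for microbial surfaces. CD14 hands endotoxin to the TLR4 complex, and CLEC7A, or dectin-1, binds beta-glucans and signals through SYK and CARD9. Clec7a (ENSMUSG00000079293, chromosome 6, 129461591 to 129472779, minus strand), which the deposited tables class as a polymorphic pseudogene, had the highest diet response of the 10. It stood at 2.55, 1.89 and 2.14 CPM in chow GFP, 31.7, 23.4 and 23.6 CPM in NASH GFP and 6.12, 7.25 and 5.01 CPM in Activin A libraries. It stood at 18.9, 26.5 and 25.2 CPM in scramble and 6.92, 7.33 and 5.34 CPM in Gpnmb hairpin libraries. The groups thus fell into 3 separate levels, with the NASH controls highest, both treatments between, and chow lowest. The mean level of Clec7a was 12.0 times that of chow in NASH GFP livers, and in log2 it differed by 3.60 ± 0.22 with diet (edgeR adjusted p = 1.66e-05), by -2.10 ± 0.18 with Activin A (0.000539) and by -1.85 ± 0.16 with the hairpin (6.03e-05).

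Cd14 (ENSMUSG00000051439, chromosome 18, 36725074 to 36726736, minus strand) stood at 2.01, 2.11 and 4.27 CPM in chow GFP libraries, with library 3 the highest of its group. It stood at 8.69, 12.9 and 9.79 CPM in NASH GFP and 2.18, 2.40 and 2.78 CPM in Activin A libraries, and at 5.32, 8.63 and 7.80 CPM in scramble and 4.53, 3.38 and 2.50 CPM in Gpnmb hairpin libraries. Every Activin A library lay within the range of chow, and the scramble libraries lay below all NASH GFP libraries. For Cd14 the test gave 1.94 ± 0.32 in log2 for diet (edgeR adjusted p = 0.00259), -2.09 ± 0.22 (0.00127) for Activin A and -1.07 ± 0.25 (0.0115) for the hairpin. The hairpin call of Cd14 was lost without scramble library 2 (adjusted p = 0.0513) or 3 (0.0531).

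The rest of the endotoxin sensing group moved less uniformly than Cd14. Of 10 tested, 3 rose and 1 fell on the diet, 0 rose and 1 fell under Activin A, and 2 rose and 2 fell under the hairpin. With library size alone the diet counts were 5 and 0. The group's median log2 fold change was 0.39, -0.60 and -0.06. Tlr1, a partner of TLR2 in lipopeptide sensing, rose by 2.92 ± 0.49 on the log2 scale on the diet, fell by 1.46 ± 0.26 under Activin A and fell by 2.09 ± 0.28 under the hairpin. Tlr4 rose by 1.92 ± 0.38 and Tlr2 by 1.52 ± 0.30 on the diet. Under the hairpin the liver-secreted endotoxin carrier gene Lbp rose by 0.47 ± 0.08 and the adaptor gene Tirap by 0.53 ± 0.10. Among C-type lectin receptors and CARD9 pathway genes, 6 of 10 rose on the diet, 5 of 11 fell under Activin A and 3 of 10 fell under the hairpin, with 0 called the other way. Clec12a, an inhibitory lectin receptor of myeloid cells, rose by 2.18 ± 0.30, fell by 1.29 ± 0.18 under Activin A and fell by 1.11 ± 0.17 under the hairpin. Clec4e, or mincle, fell by 3.72 ± 0.65 under Activin A. It did not pass the filter on low counts on the diet. Under Activin A it could pass through the NASH GFP libraries alone, which favours fallers, so the size of its fall is uncertain.

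**Figure D2:**
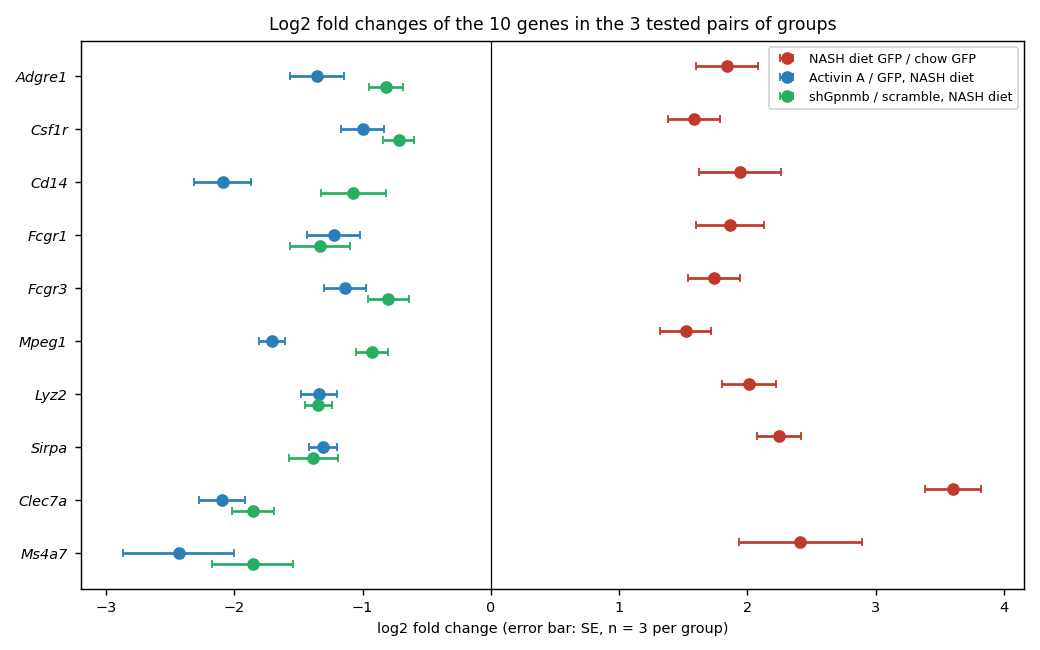
Log2 fold change with its SE for each of the 10 genes in the diet, Activin A and Gpnmb hairpin comparisons (n = 3 per group). All 10 diet points lie to the right of 0, with Clec7a farthest at 3.60, and all treatment points lie to the left.

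Fcgr1 and Fcgr3 encode activating receptors for the Fc region of immunoglobulin G, the first of high and the second of low affinity. Fcgr1 (ENSMUSG00000015947, chromosome 3, 96282909 to 96293969, minus strand) stood at 2.25, 1.51 and 2.14 CPM in chow GFP, 7.09, 7.15 and 6.83 CPM in NASH GFP and 3.55, 2.91 and 2.54 CPM in Activin A libraries. It stood at 6.71, 8.89 and 7.17 CPM in scramble and 3.67, 3.38 and 2.01 CPM in Gpnmb hairpin libraries. The NASH GFP libraries were close together, and hairpin library 3 alone of its group lay within the chow range. The diet changed Fcgr1 by 1.86 ± 0.27 on the log2 scale (edgeR adjusted p = 0.00128), Activin A by -1.22 ± 0.21 (0.00959), and the hairpin by -1.34 ± 0.23 (0.00269). Without Activin A library 3 the Activin A call was lost (adjusted p = 0.0614).

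Fcgr3 (ENSMUSG00000059498, chromosome 1, 171051174 to 171064935, minus strand) stood at 4.56, 4.38 and 4.62 CPM in chow GFP, 17.1, 15.1 and 12.0 CPM in NASH GFP and 6.66, 6.97 and 6.46 CPM in Activin A libraries. It stood at 11.2, 11.6 and 10.2 CPM in scramble and 7.47, 6.54 and 5.01 CPM in Gpnmb hairpin libraries. Both treatments lay between chow and the NASH controls in every library, and the scramble libraries lay below the NASH GFP libraries. On the log2 scale Fcgr3 differed by 1.74 ± 0.20 with diet (edgeR adjusted p = 0.000490), by -1.14 ± 0.16 (0.00500) with Activin A and by -0.80 ± 0.16 (0.00541) with the hairpin. Fcgr3 shares long stretches with Fcgr2b and Fcgr4, Lyz2 with Lyz1, and Sirpa with the Sirpb1 genes. How reads of such copies were counted is not given, so their split between copies is uncertain.

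Of 8 other Fc receptor and signalling genes, 6 rose on the diet, 4 fell under Activin A and 5 fell under the hairpin, with 0 called the other way. With library size alone the counts were 8, 4 and 7. Fcer1g, the signalling chain that Fcgr1 and Fcgr3 share, rose by 1.80 ± 0.24 on the log2 scale, fell by 1.05 ± 0.17 under Activin A and fell by 1.2 ± 0.19 under the hairpin. The inhibitory receptor gene Fcgr2b was chosen after its values were seen. With trimmed mean of M values scaling it was not called in any of these comparisons (log2 fold changes 0.39 ± 0.17, 0.30 ± 0.13 and -0.25 ± 0.11). With library size alone it was among the 8 genes called higher on the diet.

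Mpeg1 and Lyz2 encode effectors, the pore-forming perforin-2 and lysozyme M. Mpeg1 (ENSMUSG00000046805, chromosome 19, 12460779 to 12465284, plus strand) stood at 78.4, 51.6 and 49.0 CPM in chow GFP, 180.1, 154 and 167 CPM in NASH GFP and 49.98, 54.5 and 49.3 CPM in Activin A libraries. It stood at 129.8, 167 and 152 CPM in scramble and 95.4, 70.0 and 71.9 CPM in Gpnmb hairpin libraries. Chow library 1 was high for its group, the Activin A libraries lay at the level of the other chow libraries, and hairpin and chow overlapped. For Mpeg1 the test gave 1.52 ± 0.20 in log2 for diet (edgeR adjusted p = 0.000836), -1.71 ± 0.10 (9.07e-05) for Activin A and -0.93 ± 0.13 (0.000690) for the hairpin. By p-value Mpeg1 ranked 3 of 14598 genes under Activin A.

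Lyz2 (ENSMUSG00000069516, chromosome 10, 117277331 to 117282321, minus strand) stood at 31.6, 44.6 and 50.5 CPM in chow GFP, 176, 191 and 130.2 CPM in NASH GFP and 61.1, 68.9 and 66.3 CPM in Activin A libraries. It stood at 118, 145 and 132 CPM in scramble and 56.6, 55.0 and 44.0 CPM in Gpnmb hairpin libraries. Here the hairpin libraries were the lower of the treated groups and overlapped with chow, while the Activin A libraries lay above both. The diet changed Lyz2 by 2.01 ± 0.21 on the log2 scale (edgeR adjusted p = 0.000291), Activin A by -1.34 ± 0.14 (0.00127), and the hairpin by -1.35 ± 0.11 (3.72e-05).

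Sirpa and Ms4a7 encode membrane proteins of myeloid cells. SIRPA is the inhibitory receptor that binds CD47 on other cells and restrains phagocytosis, and MS4A7 is a tetraspanning protein typical of macrophages. Sirpa (ENSMUSG00000037902, chromosome 2, 129592835 to 129632228, plus strand) stood at 10.2, 13.7 and 10.5 CPM in chow GFP, 58.6, 50.8 and 49.7 CPM in NASH GFP and 20.2, 23.5 and 20.5 CPM in Activin A libraries. It stood at 45.3, 64.2 and 57.6 CPM in scramble and 26.5, 23.3 and 14.5 CPM in Gpnmb hairpin libraries. Every treated library lay above every chow library and below every NASH control. On the log2 scale Sirpa differed by 2.24 ± 0.17 with diet (edgeR adjusted p = 6.58e-05), by -1.31 ± 0.11 (0.000539) with Activin A and by -1.39 ± 0.19 (0.000750) with the hairpin. Its binding partner gene Cd47 and the phosphatase gene Ptpn11 were both chosen after their values were seen. With trimmed mean of M values scaling neither was called on the diet (0.01 ± 0.14 and 0.25 ± 0.14), under Activin A (-0.18 ± 0.09 and 0.07 ± 0.09) or under the hairpin (0.09 ± 0.06 and 0.20 ± 0.07). Of 5 genes of that axis tested, 3 rose on the diet, 1 fell under Activin A and 2 fell under the hairpin. Among them was the phosphatase gene Ptpn6, which rose by 0.58 ± 0.16 on the diet and fell by 0.47 ± 0.10 under the hairpin. With library size alone 4 rose on the diet, so Cd47 or Ptpn11 was then called higher.

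Ms4a7 (ENSMUSG00000024672, chromosome 19, 11321039 to 11336146, minus strand) was the least abundant of the 10, with 6 to 16 counts per library in chow GFP, Activin A and hairpin livers and 34 to 109 in the NASH controls. With 6 counts in chow library 2, Ms4a7 could pass the filter on the diet (minimum count 10) through the NASH GFP libraries alone, which favours risers. It stood at 0.790, 0.453 and 0.758 CPM in chow GFP, 3.48, 5.26 and 1.83 CPM in NASH GFP and 0.601, 0.685 and 0.664 CPM in Activin A libraries. It stood at 2.31, 2.65 and 2.55 CPM in scramble and 0.612, 0.844 and 0.599 CPM in Gpnmb hairpin libraries. Both treated groups overlapped with chow, and the NASH GFP libraries were the most spread. For Ms4a7 the test gave 2.41 ± 0.48 in log2 for diet (edgeR adjusted p = 0.00735), -2.43 ± 0.43 (0.0121) for Activin A and -1.86 ± 0.31 (0.00213) for the hairpin. The Activin A call was lost by limma-voom (adjusted p = 0.0505) and without any of the Activin A libraries (0.0511 to 0.0666). Of the other MS4A family genes, 4 of 7 rose on the diet (5 with library size alone), 3 of 7 fell under Activin A and 3 of 6 fell under the hairpin, with 0 called the other way. Ms4a6d rose by 2.66 ± 0.40, fell by 1.91 ± 0.23 under Activin A and fell by 1.5 ± 0.33 under the hairpin.

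Per length, the order of the 10 transcripts was much the same in all groups. In the authors' deposited FPKM (fragments per kilobase and library depth), Lyz2 was the highest in every group, with a mean of 30.8 FPKM in chow GFP and 122 FPKM in NASH GFP livers, and Mpeg1 was the second with 13.2 and 37.3 FPKM. Lyz2 made up between 44.7% (hairpin) and 57.8% (Activin A) of the summed FPKM of the 10 genes, and Mpeg1 between 13.8% (Activin A) and 22.7% (chow GFP). Csf1r was the third and Ms4a7 the last in every group. Clec7a went from 1.36% ± 0.320 (SD, n = 3) of the sum in chow GFP to 4.36% ± 0.589 in NASH GFP livers, which took it from the 8th to the 5th highest FPKM. In Activin A and hairpin livers it made up 2.70% ± 0.425 and 2.80% ± 0.218. Csf1r took 12.9% ± 1.04 of the sum in hairpin livers and 9.52% ± 0.482 in scramble livers.

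For most of the 10 genes, mean CPM stayed above chow in both treated groups, but only Csf1r, Sirpa and Clec7a were called higher in both. How much of the difference between the NASH control and chow remained varied from gene to gene, and that variation was not tested. Scramble and hairpin livers also carried another promoter and cargo than chow GFP livers. Diet and vector cannot be told apart in their comparisons with chow. Against chow GFP, 10 of 10 genes were higher in scramble livers, where 17.0% of 15665 genes tested were called higher and the libraries of 46.8% did not overlap, with log2 fold changes from 1.28 to 3.41. In Activin A livers 5 of 10 were higher than in chow, where 11.8% of genes were called higher, and 0 lower, where 11.8% were called lower. These were Csf1r (0.55 ± 0.18, edgeR adjusted p = 0.0313), Fcgr3 (0.57 ± 0.18, 0.0286), Lyz2 (0.63 ± 0.17, 0.0103), Sirpa (0.90 ± 0.19, 0.00256) and Clec7a (1.47 ± 0.22, 0.000124). Not called were Adgre1 (0.45 ± 0.23), Fcgr1 (0.60 ± 0.26), Ms4a7 (-0.05 ± 0.44), Cd14 (-0.19 ± 0.32) and Mpeg1 (-0.22 ± 0.16), of which Cd14 and Ms4a7 stood above chow with library size alone. With that scaling 7 of 10 were called higher, Adgre1 (adjusted p = 0.0383) and Fcgr1 (0.0301) among them. In Gpnmb hairpin livers 4 of 10 were higher than in chow, where 12.2% of genes were called higher, and 0 lower, where 13.7% were. These were Adgre1 (1.11 ± 0.22, edgeR adjusted p = 0.00156), Csf1r (1.10 ± 0.18, 0.000207), Sirpa (0.90 ± 0.19, 0.00250) and Clec7a (1.56 ± 0.22, 7.52e-05). The other 6 had log2 fold changes between 0.03 ± 0.43 for Ms4a7 and 0.61 ± 0.26 for Fcgr1, and 8 genes were called with library size alone. The libraries did not overlap with chow for 6 genes under Activin A and 5 under the hairpin (35.7% and 35.8% of all genes tested). These comparisons share the chow libraries. Without chow library 1 the number of genes called higher in Activin A livers was 2, and without Activin A library 2 or 3 it was 3. Of the calls over chow in Activin A livers, that of Fcgr3 was lost without any 1 of 5 libraries (edgeR adjusted p = 0.0543 to 0.0800, chow library 3 being the exception), by limma-voom (0.0817), without the filter on low counts (0.0507) and with only the compared groups in the fit (0.0627). That of Csf1r was lost without chow library 1 (0.128) or 3 (0.0515) or Activin A library 2 (0.119) or 3 (0.0707), and that of Lyz2 without chow library 1 (0.0507).

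As a share of the distance between chow and the NASH control in mean CPM, Csf1r kept the most in both treatments, 24.0% in Activin A and 45.5% in hairpin livers. Adgre1 kept 14.7% and 41.5%, Sirpa 23.9% and 22.5%, Clec7a 16.4% and 20.3%, Fcgr1 20.5% and 18.8% and Fcgr3 21.3% and 28.1%. Lyz2 kept 18.8% in Activin A and 10.8% in hairpin livers. Cd14 and Mpeg1 stood slightly below the chow mean in Activin A livers (-4.50% and -7.80%) and kept 15.1% and 21.6% in hairpin livers. Ms4a7 was near the chow mean in both (-0.597% and 0.969%).

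**Figure D3:**
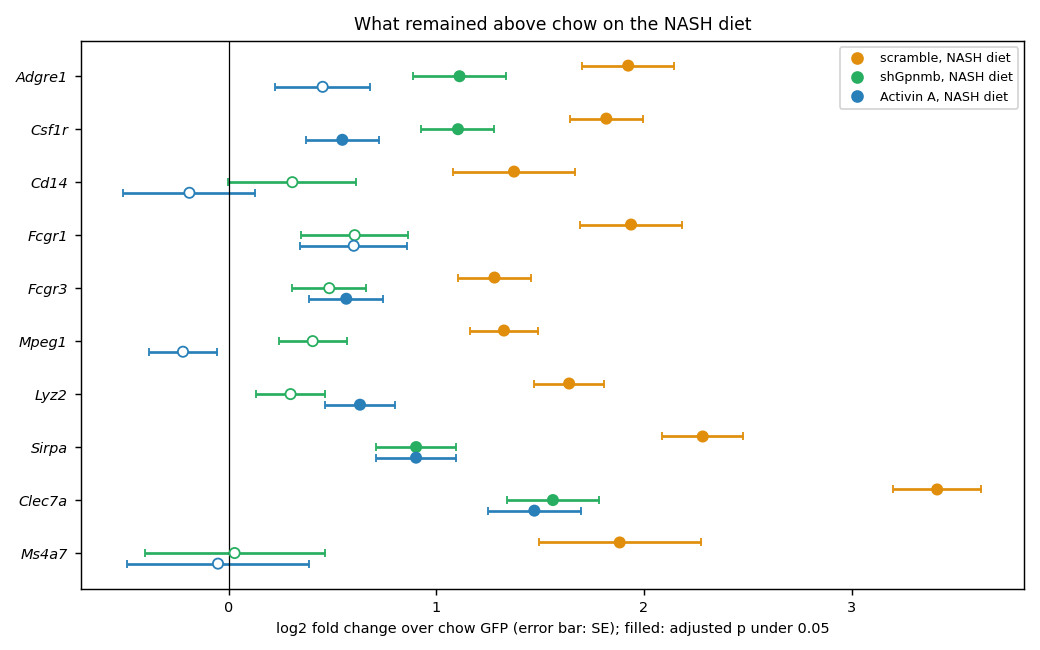
Log2 fold change over chow GFP with its SE for each gene in scramble, Gpnmb hairpin and Activin A livers (n = 3 per group, all against the same 3 chow libraries), filled where the adjusted p was under 0.05. All 10 scramble points are filled, against 4 hairpin and 5 Activin A points, and Clec7a and Sirpa are filled in all groups.

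The NASH control groups, which differ in promoter and cargo, were also compared for these genes, and whether they were alike was not tested. Of the 10, edgeR called 0 between scramble and NASH GFP livers, as did DESeq2 and limma-voom, where 0.172% of 15665 genes were called higher and 0.568% lower, and 1 had an unadjusted p under 0.05. That gene was Fcgr3, at -0.42 ± 0.16 (edgeR unadjusted p = 0.0168, adjusted p = 0.204). The libraries did not overlap for Fcgr3 and Cd14 (-0.53 ± 0.27), 2 of 10 genes, against 24.9% of all genes. The other 8 had log2 fold changes from -0.50 ± 0.33 for Ms4a7 to 0.27 ± 0.17 for Csf1r.

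Whether the treatments differed was tested as the Activin A effect minus the Gpnmb hairpin effect, in a single fit over all libraries. Of the 10 genes edgeR called 0, where 1.90% of 15665 genes were called higher and 2.14% lower, and 2 had an unadjusted p under 0.05. For Mpeg1 the difference was -0.78 ± 0.23 on the log2 scale (edgeR unadjusted p = 0.00325, adjusted p = 0.0687), a stronger fall under Activin A, and its adjusted p ranged from 0.0148 to 0.165 over the alternatives. It passed the threshold with DESeq2, without the filter on low counts and with only the 4 groups in the fit, and limma-voom called 0. For Cd14 the difference was -1.02 ± 0.41 (adjusted p = 0.198). For Lyz2 it was close to 0 (SE 0.27), and for Adgre1 it was -0.54 ± 0.30. Activin A gave the fold change of larger size for 7 of the 10 genes, the exceptions being Fcgr1, Lyz2 and Sirpa. Over the 10 genes the fold changes of the treatments, which share no library, had a Pearson r of 0.667, given as a description.

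**Figure D4:**
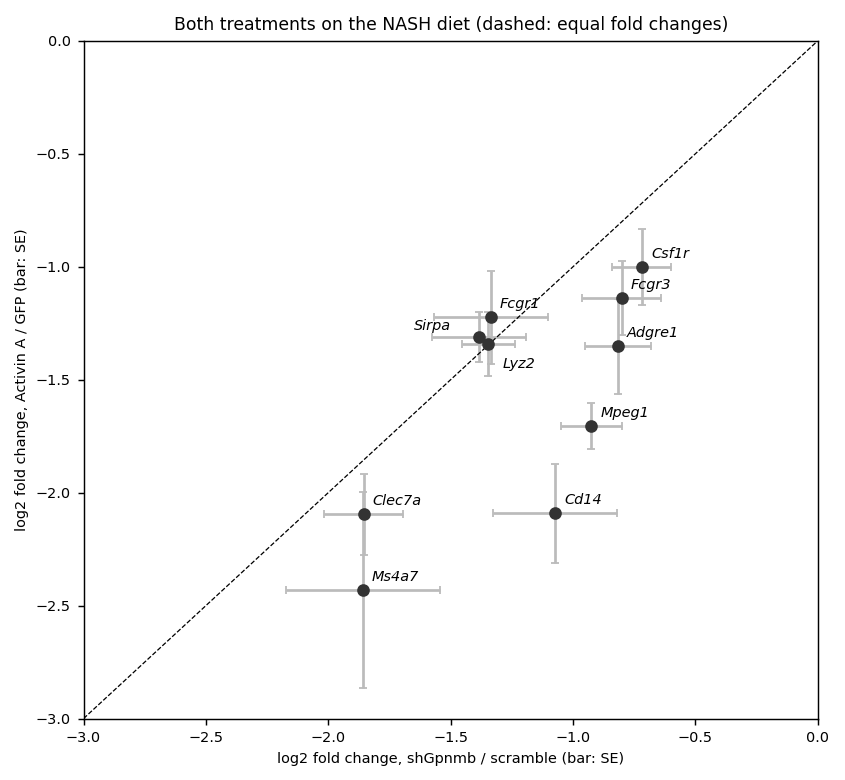
Log2 fold change under Activin A (vertical) against that under the Gpnmb hairpin (horizontal) for each gene, with SE bars and a dashed line of equal change. Mpeg1 (-1.71 against -0.93) and Cd14 (-2.09 against -1.07) lie farthest below the line, and Lyz2 lies on it.

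Among themselves the 10 genes rose and fell together across groups, and less so within groups. Over the 15 libraries the 45 pairs had Pearson r between 0.713 and 0.984 in log2 CPM, with a median of 0.887. With the group means removed, r ran from -0.377 to 0.911, with a median of 0.344 and 39 of 45 above 0. The highest was Adgre1 with Csf1r (0.911): NASH GFP library 2, chow library 1, Activin A library 1 and hairpin library 3 were the lowest of their groups for both. The lowest was Csf1r with Ms4a7 (-0.377), and Mpeg1 with Lyz2 stood at -0.295. All values of a pair come from the same libraries and share their depth and scaling.

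The mean standardized log2 CPM of the 10 genes was then set beside 11778 other genes whose mean log2 CPM reached 1. The most alike over the 15 libraries were C1qb (Pearson r 0.980), a complement C1q chain, Tyrobp (0.977), the DAP12 signalling adaptor, Neurl3 (0.976), C3ar1 (0.971), the C3a receptor, and Cd74 (0.971), the invariant chain of class II molecules. With the group means removed their r was 0.791, 0.744, 0.910, 0.501 and 0.656.

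Other transcripts shared by macrophages moved with the 10. Of 15 other pan-macrophage markers tested, 12 rose and 0 fell on the diet (14 rose with library size alone), 0 rose and 11 fell under Activin A, and 1 rose and 12 fell under the hairpin. The list's median log2 fold change was 1.83, -1.05 and -0.97. C1qb rose by 1.83 ± 0.16, fell by 1.13 ± 0.11 under Activin A and fell by 0.97 ± 0.11 under the hairpin. Cybb, the phagocyte oxidase subunit, rose by 2.26 ± 0.23 and fell by 1.22 ± 0.15 under Activin A, and the scavenger receptor gene Msr1 fell by 0.95 ± 0.10 under the hairpin. The 1 gene that rose under the hairpin was the haemoglobin scavenger receptor gene Cd163 (0.66 ± 0.18), chosen after its values were seen.

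Markers of macrophage subsets did not all follow. Of 10 lipid-associated macrophage markers, 9 rose on the diet, 9 fell under Activin A, and 6 fell and 1 rose under the hairpin (7 and 0 with library size alone), with medians of 3.40, -1.78 and -1.68. Gpnmb, the hairpin's target, is on that list, and the riser was the fatty acid binding protein gene Fabp5 (0.87 ± 0.25), chosen after its values were seen. Trem2 fell by 2.33 ± 0.25 and Itgax by 2.47 ± 0.23 under the hairpin. Of 10 Kupffer cell markers, 4 rose on the diet, 1 fell under Activin A and 3 fell under the hairpin, with medians of 0.90, -0.41 and -0.34, and with library size alone the counts were 5, 1 and 6. Cd5l, a secreted scavenger protein of resident macrophages, rose by 2.04 ± 0.22, fell by 1.25 ± 0.21 under Activin A and fell by 0.98 ± 0.11 under the hairpin, and the Kupffer lectin gene Clec4f rose by 0.94 ± 0.18 on the diet. Of the 10 monocyte markers listed, only those passing the filter were tested, and a gene can pass through its higher group alone. On the diet 5 of 6 tested rose, 1 of 8 fell under Activin A (2 with library size alone) and 4 of 7 fell under the hairpin. The medians of the monocyte markers tested were 1.86, -0.85 and -1.13. Ccr2, the chemokine receptor of inflammatory monocytes, rose by 3.19 ± 0.38, fell by 1.39 ± 0.17 under Activin A and fell by 2.12 ± 0.25 under the hairpin. Whether these lists differ from the 10 genes was not tested.

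**Figure D5:**
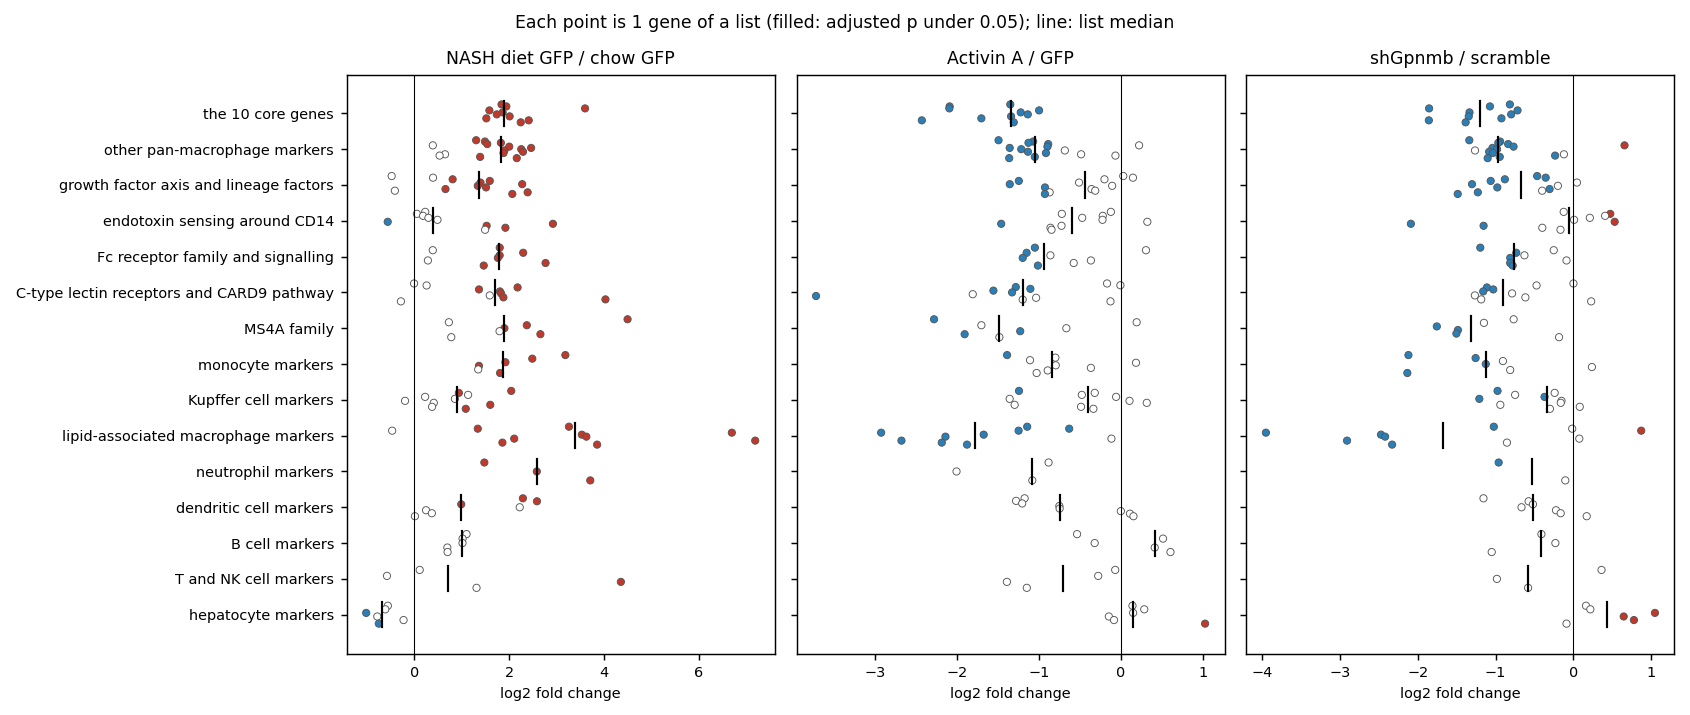
Log2 fold change of each gene of the lists named on the left, in the diet, Activin A and Gpnmb hairpin comparisons, filled where the adjusted p was under 0.05, with a line at each list median. The 10 core genes are filled throughout, while B cell markers are open in all panels.

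Markers of other immune cells, some of which share genes of the 10, are given beside these results. Neutrophil markers summed to 1.59 to 2.57 CPM in chow GFP, 7.64 to 8.47 in NASH GFP, 2.62 to 5.08 in Activin A, 5.32 to 9.24 in scramble and 2.78 to 4.96 CPM in hairpin libraries. Only 3 of the 10 listed passed the filter on the diet and all 3 rose, among them S100a9 (3.71 ± 0.78). A gene of such low level can pass the filter through the NASH GFP libraries alone, which favours risers, so that count is only a description. None of 3 was called under Activin A, and 1 of 2 fell under the hairpin (Csf3r, by 0.96 ± 0.26). The granule gene Mpo was at 0 in every group but NASH GFP, and Camp and Ltf were at 0 in chow GFP livers. Of the dendritic cell markers 3 of 7 rose on the diet (4 with library size alone) and 0 were called under either treatment (1 lower under the hairpin with library size alone), with sums of 10.3 to 21.2 CPM over all libraries. B cell markers gave 0 calls by edgeR in all 3 comparisons, with sums of 1.42 to 10.7 CPM, and of the T and natural killer cell markers 1 of 4, Cd8a, rose on the diet. The part of these cells in the results was not tested.

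Some hepatocyte markers were called in the opposite direction, while most did not pass the test on the diet or under Activin A. Their sum was 80923 to 111954 CPM in chow GFP, 53862 to 66361 in NASH GFP, 69787 to 71822 in Activin A, 55315 to 66242 in scramble and 67604 to 73622 CPM in hairpin libraries. Of 6, 2 fell on the diet (1 with library size alone), among them Cps1 by 1.02 ± 0.21, 1 rose under Activin A (Ttr, 1.03 ± 0.11) and 3 rose under the hairpin, among them Hnf4a (0.78 ± 0.09). Stellate cell markers rose in 5 of 6 cases on the diet (6 with library size alone), fell in 1 of 6 under Activin A and in 4 of 6 under the hairpin. Endothelial markers rose in 3 of 6 cases on the diet, 1 rose and 1 fell under Activin A (0 and 1 with library size alone, where the list median turned from 0.05 to -0.01), and 3 fell under the hairpin. Biliary markers rose in 3 of 5 cases on the diet, 1 of 5 fell under Activin A (Spp1, which is also on the lipid-associated list) and 0 of 5 were called under the hairpin (1 lower with library size alone). The biliary list medians were 1.42, -1.30 and -0.66. Biliary sums were 55.0 to 73.1 CPM in chow GFP, 129 to 299 in NASH GFP and 51.6 to 56.4 CPM in Activin A libraries. They were 69.8 to 208 CPM in scramble and 78.2 to 96.0 CPM in hairpin libraries. The part of these shifts in the macrophage results was not tested.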

How the data were processed

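Bulk liver RNA was sequenced in 15 libraries from stranded, poly(A)-selected library kits, per the labels' protocols. Per the file headers, the authors deposited a table for each of 3 comparisons. Per the file headers, each deposited table held raw counts per gene and library, a normalized signal (counts the authors divided by a size factor, as the values show), FPKM, log2 fold changes, p-values before and after adjustment, and gene lengths. The submitters' processing notes name GRCm38, or mm10. Which programs aligned and counted the reads, with what strand option and gene annotation, was not stated there or in the labels. The tables held 23962, 24357 and 24671 genes, and the NASH GFP counts were identical in both tables that hold them (23148 shared genes). Symbols that a spreadsheet had changed to dates (21, 22 and 22) were looked up again by identifier.

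Counts were analysed in R 4.3.3 with edgeR 4.0.16 (quasi-likelihood test) after filterByExpr (minimum count 10) and trimmed mean of M values (TMM) scaling, with Benjamini-Hochberg adjustment over all genes tested and a threshold of 0.05. P-values are two-sided, and the SE is the size of the log2 fold change divided by the square root of F. The diet, Activin A and hairpin comparisons were each fitted on their 2 groups, and comparisons across tables in a single fit of 15 libraries, where a gene that a table lacks counted as 0. CPM used TMM factors over 15 libraries (0.815 to 1.13, lowest in chow), and log2 CPM for correlations a prior count of 2. The script was tested on simulated data. DESeq2 1.42.0, limma-voom (limma 3.58.1), other scalings, no filter, a replicate block and leaving out each library were alternatives.

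The members and gene lists were chosen with earlier results of these data known. Genes outside the 10 were named by rule: Gpnmb and Inhba, up to 3 called genes of smallest p per list and comparison, and the 5 most alike in profile, with exceptions marked. The rule sets which genes may be named: the text gives examples from it, picked by role after their values were seen, and not every gene it allows. Gene positions are those of the deposited tables, 26099 of 26839 identical in GENCODE M21, and promoter windows come from RefSeq.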

Additional observations from a re-analysis of the deposited data

How the results depend on the processing

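Over 13 alternatives per gene (19 for the difference of effects), all 130 values of the 10 genes kept their direction and call on the diet, and all 130 in scramble against chow. Under Activin A 123 of 130 did and 7 lost the call. Under the Gpnmb hairpin 128 did and 2 lost it. Scramble against NASH GFP kept 126, with 4 reversed. Activin A against chow kept 108, with 13 lost, 2 gained and 7 reversed. The hairpin against chow kept 119, with 8 gained and 3 reversed. The difference of effects kept 169 of 190, with 3 gained and 18 reversed. Causes were not tested.

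With library size alone, genes called higher and lower over all genes were 2671 and 405 (diet), 3415 and 964 (Activin A against chow), 3703 and 1166 (hairpin against chow) and 5161 and 973 (scramble against chow), with 1006 higher under the hairpin and 52 lower in scramble against GFP. Of the 10 genes, 8 were then called in the hairpin against chow. In Activin A against chow, Cd14 turned to 0.0455 and Ms4a7 to 0.17. Without the filter the counts were 383 and 914 (Activin A), 256 and 378 (scramble against GFP) and 473 higher for the difference of effects. DESeq2 gave 389 and 869, 195 and 360, and 451 and 533. Limma-voom gave 64 higher in scramble against GFP. Fits of all 5 groups gave 2475 and 2025 (diet) and 835 and 1045 (hairpin). Fits of the compared groups alone gave 29 lower (scramble against GFP), 1176 and 1384 (hairpin against chow) and 532 and 519 (difference of effects). In the difference of effects 1 of the 10 genes, Mpeg1, was called lower without the filter, by DESeq2 and in the fit of the compared groups, and Lyz2, slightly negative as reported, became positive with DESeq2 size factors (0.00663), library size alone (0.0456), no filter (0.0428), DESeq2 (0.00666), limma-voom (0.0214) and the compared groups alone (0.0163).

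Leaving out each library in turn gave 971 to 1472 higher and 384 to 800 lower genes on the diet, 68 to 535 and 180 to 900 under Activin A, and 929 to 1685 and 994 to 1811 under the hairpin. The ranges were 1 to 361 and 12 to 502 in scramble against GFP, and 181 to 314 and 186 to 396 for the difference of effects. In Activin A against chow, 1214 to 1991 genes were lower and 2 to 4 of the 10 genes higher. Values that reversed ranged in scramble against GFP from -0.25 to 0.0034 (Clec7a), -0.0522 to 0.25 (Adgre1), -0.0169 to 0.19 (Fcgr1) and -0.0428 to 0.20 (Sirpa). They ranged in Activin A against chow from -0.38 to 0.25 (Cd14), -0.34 to 0.0390 (Mpeg1) and -0.24 to 0.10 (Ms4a7), in the hairpin against chow from -0.17 to 0.17 (Ms4a7), and in the difference of effects from -0.15 to 0.11 (Lyz2), -0.11 to 0.27 (Fcgr1) and -0.14 to 0.25 (Sirpa).

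The labels do not say that replicate numbers pair the libraries, and same-numbered libraries did not deviate together (correlations of -0.13 to 0.09, with 0 to 2 of 6 libraries most like their own number). With the number as a replicate block, 467 genes were lower on the diet and 16 higher and 52 lower in scramble against GFP, and Ms4a7 in the hairpin against chow was -0.0027. The block changed no number of calls among the 10 genes: 10, 10, 10, 0, 5, 4, 10 and 0 were called in the 8 comparisons.

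Ms4a7, with 6 to 109 counts per library, is limited most by depth, and groups of 3 limit every test.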
